A study of Solanum lycopersicum with 17 samples.

Results

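Fruit of tomato lines that make extra auxin in the ovule was compared with wild-type fruit whose seeds had been taken out by hand, so that neither side was hybridized with its seeds. The control fruit had held seeds until then, so the transgene and growth without seeds cannot be told apart here. The comparison used 9 of the 17 arrays of the series: 3 of INO-IaaM fruit, 3 of DefH9-IaaM fruit and 3 of the wild-type control no seeds. Its value for each probe set was the equal-weight mean of both IaaM lines minus the mean of control no seeds, over 10038 probe sets that are neither Affymetrix controls nor transgene reporters.

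INO-IaaM and DefH9-IaaM both carry iaaM, a bacterial gene whose enzyme converts tryptophan to an auxin precursor. The INO promoter is that of INNER NO OUTER, an Arabidopsis gene of the ovule, and the DefH9 promoter is active in placenta and ovules, so neither drives the gene throughout the fruit. The other arrays held 5 of RolB lines (3 INO-RolB, 2 DefH9-RolB), which carry a bacterial gene that alters auxin responses behind the same promoters, and 3 of wild-type fruit hybridized with its seeds (control with seeds). Each array held RNA from 1 pool of 8 fruits and stands for 1 plant, and the labels name no independent insertion events within a line. Fruit stage was not given in the sources used here.

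Seeds normally supply the growing tomato fruit with auxin and gibberellin, and auxin supplied to the unfertilized ovary can replace pollination and start seedless fruit growth. Auxin acts by removing Aux/IAA repressor proteins from auxin response factors. Auxin also raises ethylene synthesis in many plant tissues, through genes for ACC synthase, the enzyme that makes the ethylene precursor ACC. In tomato fruit ethylene drives ripening.

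The arrays were alike in their overall behaviour, with correlations of 0.986 to 0.995 within a group. RNA quality was followed by how much weaker the 5' than the 3' probe sets of actin and gapdh were. This 5' minus 3' difference had a mean of -0.50 ± 0.14 in IaaM fruit (SD, n = 6) and of -0.69 ± 0.19 in control no seeds (SD, n = 3; exact two-sided permutation p = 0.119, adjusted p = 0.238 over the 4 array measures, smallest possible p = 0.0238). Control no seeds replicate 3 had the lowest value, -0.92. Among the IaaM arrays the lowest was DefH9-IaaM replicate 2 at -0.70, below control no seeds replicates 1 and 2 (-0.57 and -0.59). DefH9-IaaM replicate 2 often lay nearer to the controls than the other 5 IaaM arrays did, as the values below show. Levels are log2 RMA values. The 61 reporter probe sets without signal never exceeded 5.49 on any array (lowest value 2.45), and a level in that silent range cannot be told from absence.

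The IaaM lines differed from control no seeds at 1135 of the 10038 probe sets (11.3%) by limma at an adjusted p under 0.05. Of these, 490 (4.88%) were higher and 645 (6.43%) lower in the IaaM lines. That balance turned round without DefH9-IaaM replicate 2 (956 higher, 881 lower) and with array weights (1052 higher, 964 lower). The falls were larger. At least 2-fold differences were 50 among the rises and 181 among the falls, and the median size was 0.47 on the log2 scale for rises and 0.67 for falls, beside 0.16 for all probe sets tested. The called probe sets were of similar brightness in both directions, with a median level of 9.10 for rises and 9.20 for falls. Of the 1135, 61 lay in the range of the silent reporters in both groups, and these are named as no gene's change. Among the 909 probe sets with a gene name, 50 were higher (5.5%) and 93 lower (10.2%). Irrespective of the test, all 6 IaaM arrays lay above all 3 controls at 682 probe sets (6.79%) and below them at 780 (7.77%). Counted over the 802 genes with a name in the annotation, 45 (5.61%) were higher and 86 (10.7%) lower, with a median difference of -0.01.

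The count depended on single arrays. It was 434 without control no seeds replicate 1, 466 without control no seeds replicate 3, 658 and 700 without DefH9-IaaM replicates 1 and 3, and 1837 without DefH9-IaaM replicate 2. With the 3 groups of the comparison fitted alone it was 526, and with the 5' minus 3' difference of each array as a covariate 415. Of the 52 genes and probe sets named from this comparison, 23 lost their call under that covariate: ACO5, TPRP-F1, LOC606712, lin5, LOC544276, CBF1, tXET-B2, IAA3, EIL3, SPY, AREB1, XTH3, NSY, loxD, SCOA, mMDH1, MDHAR, MPK3, CDPK1, LEA14, VAHOX1 and 2 unnamed probe sets. None of the 52 changed direction. The part of RNA quality in the count was not tested further. In these bulk samples, fewer cells of a type and less RNA per cell cannot be told apart.

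**Figure D1:**
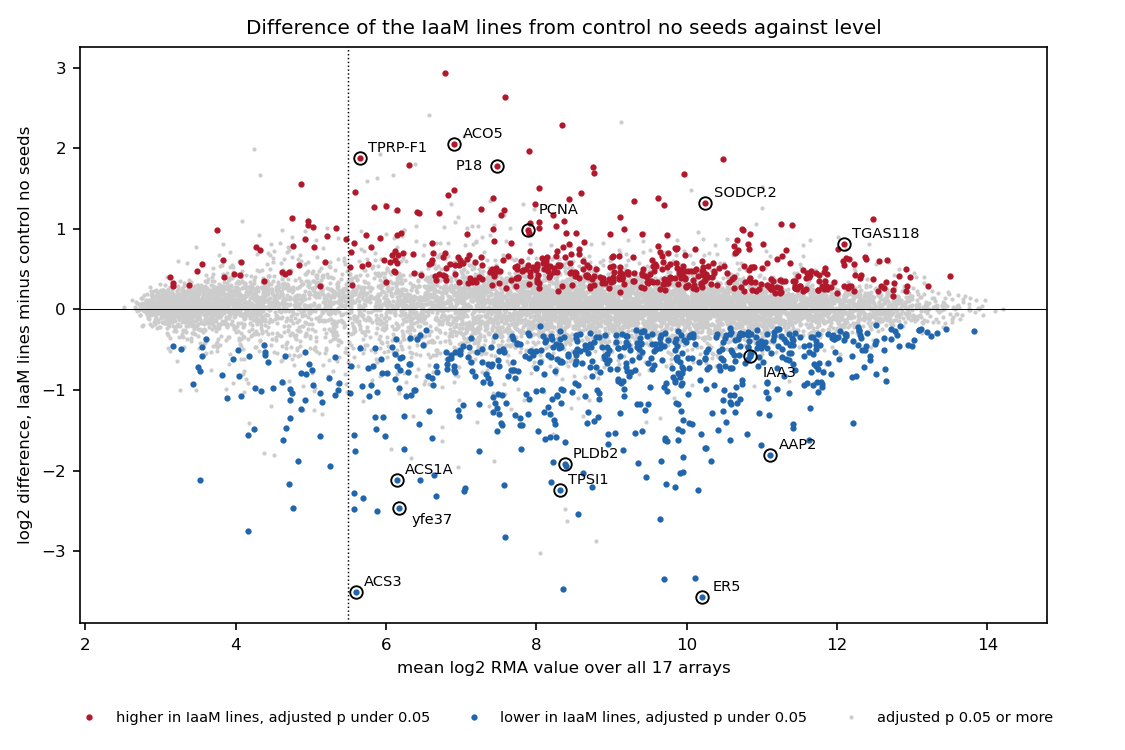
Log2 difference of the IaaM lines from control no seeds (vertical axis) against the mean log2 RMA value over all 17 arrays (horizontal axis), 1 point for each of the 10038 probe sets. The 490 probe sets higher in the IaaM lines are red, the 645 lower ones blue and the rest grey. Ringed points are labelled genes, and the dotted line marks 5.49, the top of the silent reporter range. The blue points reach farther from 0 than the red ones over most of the range of levels.

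Of the 14 genes of ethylene synthesis, 5 fell and 1 rose in the IaaM lines (35.7% and 7.14%, beside 10.7% and 5.61% over all named genes). The list's median difference was -0.31, with 8 differences below 0 and 6 above, and 3 of the 14 lay in the silent range in both groups. The 5 that fell were ACS3 and ACS1A, which encode ACC synthases, SAM3 and SAM1, which encode enzymes that make the methyl donor S-adenosylmethionine from which ACC is made, and ACO4, one of the ACC oxidases that turn ACC into ethylene. The 1 that rose was ACO5, another ACC oxidase gene.

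ACS3 measured 4.11, 4.24 and 3.72 in INO-IaaM fruit and 4.80, 5.61 and 4.23 in DefH9-IaaM fruit, against 9.13, 7.59 and 7.17 in control no seeds. The groups did not overlap, and 5 of the 6 IaaM arrays lay in the silent range. The difference was -3.51 ± 0.43 (SE, limma adjusted p = 0.00081). With values in the silent range set to its top, ACS3 was at least 5.48-fold lower in the IaaM lines. ACS3 also stands on the seed list used below, and control with seeds had 6.999, 7.83 and 7.53, close to control no seeds.

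ACS1A measured 5.48, 4.98 and 4.73 in INO-IaaM fruit and 5.25, 6.52 and 5.74 in DefH9-IaaM fruit, against 7.46, 8.15 and 7.09 in control no seeds. The arrays again did not overlap, with 4 IaaM arrays in the silent range, and the fall was at least 3.64-fold (-2.12 ± 0.29 SE before that limit, limma adjusted p = 0.0014). SAM3, a bright gene, was lower by less: it had 12.09, 12.10 and 12.10 in INO-IaaM and 12.08, 12.28 and 12.16 in DefH9-IaaM fruit, against 12.46, 12.61 and 12.66 in control no seeds. Its difference was -0.44 ± 0.07 (SE, limma adjusted p = 0.0025), with no overlap. The calls of ACS3, ACS1A and SAM3 held without any 1 of the 9 arrays and with the 5' minus 3' covariate.

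ACO5 had 7.92, 6.74 and 6.53 in INO-IaaM and 7.45, 7.18 and 7.95 in DefH9-IaaM fruit, against 5.17, 5.63 and 4.94 in control no seeds. All IaaM arrays lay above the controls, but the call was near the threshold (2.05 ± 0.58 SE, limma adjusted p = 0.038, and at least 3.39-fold with 2 controls in the silent range). It was lost without any 1 of the 3 controls, INO-IaaM replicates 1 and 2 or DefH9-IaaM replicates 1 and 3 (adjusted p up to 0.135), and it was 0.109 with the 5' minus 3' covariate. The 2 ACC synthases of ripening tomato fruit, ACS2 and ACS4, differed by 0.40 and 0.80 (limma adjusted p = 0.143 and 0.066). For ACO6 the brightest of 3 probe sets missed the threshold (-0.56, limma adjusted p = 0.052), while the other 2 differed by -1.47 and -1.54 (limma adjusted p = 0.00997 and 0.00903). ACO6 is therefore not among the falls counted.

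Among 35 genes of ethylene perception and response, 5 fell and 1 rose (14.3% and 2.86%, beside 10.7% and 5.61% over all named genes), with a median difference of 0.03. The largest fall of any named gene was in this list. ER5, an ethylene-responsive gene for a protein like those of late embryogenesis, had 8.03, 8.05 and 8.15 in INO-IaaM fruit and 8.74, 9.96 and 8.65 in DefH9-IaaM fruit, against 11.999, 12.45 and 12.03 in control no seeds. No IaaM array came within the range of the controls, and ER5 was 11.9-fold lower in the IaaM lines (-3.57 ± 0.53 SE, limma adjusted p = 0.0018). The call held without any 1 of the 9 arrays.

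EIL3, a gene for a transcription factor of the EIN3 family that carries the ethylene signal into the nucleus, was lower by a small amount (-0.44 ± 0.10 SE, limma adjusted p = 0.017). Its call was lost without control no seeds replicate 1 (adjusted p = 0.0645). The member that rose was LOC606712, which RefSeq also lists as an ethylene response factor gene, with 7.67, 6.12 and 7.06 in INO-IaaM and 6.73, 6.71 and 8.26 in DefH9-IaaM fruit, against 5.24, 5.63 and 5.01 in control no seeds. All IaaM arrays were above the controls. Of the controls, 2 lay in the silent range, so the rise was at least 2.94-fold (1.80 ± 0.38 SE, limma adjusted p = 0.012). Without control no seeds replicate 1 or 3 the call was lost (adjusted p up to 0.0585), and with the 5' minus 3' covariate the adjusted p was 0.074.

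**Figure D2:**
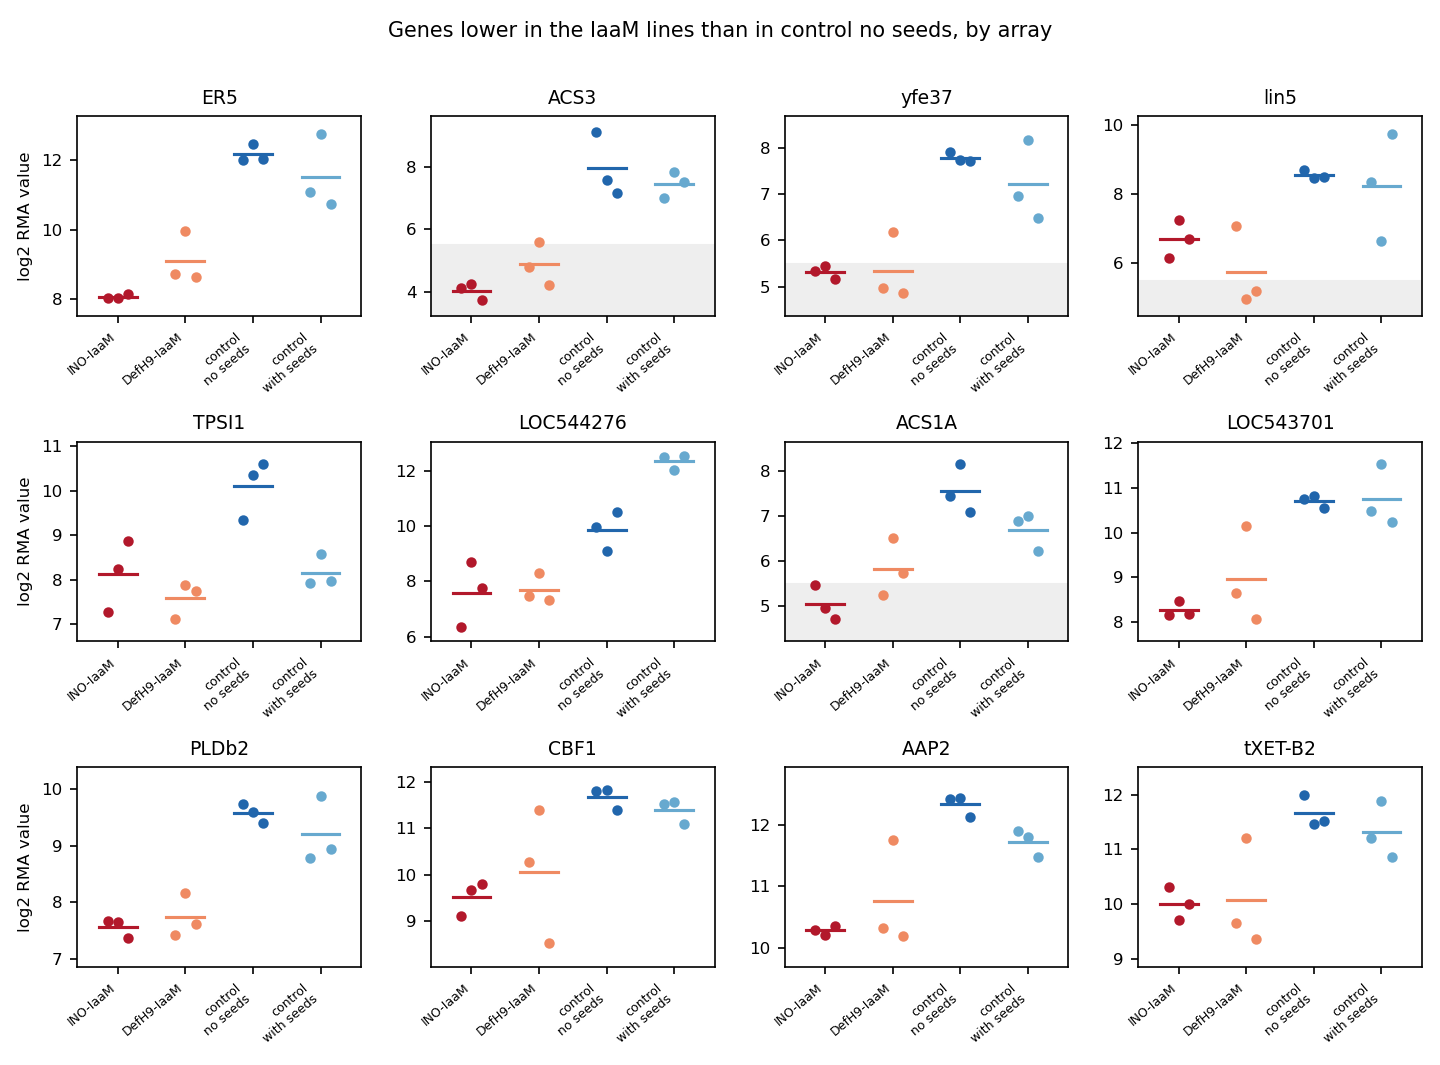
Log2 RMA values by array of the 12 named genes with the largest falls among those that passed without overlap. The groups are INO-IaaM, DefH9-IaaM, control no seeds and control with seeds. Points are arrays, horizontal bars are group means, and grey marks the silent reporter range up to 5.49. All 6 IaaM arrays lie below all 3 of control no seeds in each panel, as the naming rule requires, and DefH9-IaaM replicate 2 is the highest IaaM array for ER5, ACS3, yfe37, ACS1A, LOC543701, PLDb2, CBF1, AAP2 and tXET-B2.

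Of 22 genes of amino acid and polyamine metabolism and transport, 8 fell and 1 rose (36.4% and 4.55%, beside 10.7% and 5.61% over all named genes), with a median difference of -0.34. The falls included AAP1 and AAP2, which encode amino acid permeases, ProT1 and ProT2, which encode proline transporters, and yfe37, which RefSeq also lists as GAD3.

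AAP2 had 10.29, 10.22 and 10.36 in INO-IaaM fruit and 10.32, 11.76 and 10.20 in DefH9-IaaM fruit, against 12.43, 12.44 and 12.13 in control no seeds. The arrays did not overlap, although DefH9-IaaM replicate 2 came close to the lowest control. AAP2 was 3.498-fold lower (-1.81 ± 0.26 SE, limma adjusted p = 0.0017).

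AAP1 had 8.18, 8.48 and 7.98 in INO-IaaM and 8.26, 8.65 and 8.41 in DefH9-IaaM fruit, against 9.43, 10.12 and 9.24 in control no seeds. It was 2.41-fold lower with no overlap (-1.27 ± 0.19 SE, limma adjusted p = 0.0019). yfe37 had 5.34, 5.44 and 5.16 in INO-IaaM and 4.98, 6.18 and 4.87 in DefH9-IaaM fruit, against 7.92, 7.73 and 7.72 in control no seeds. Since 5 IaaM arrays lay in the silent range, the fall was at least 4.55-fold (-2.46 ± 0.36 SE before that limit, limma adjusted p = 0.0016). The calls of AAP1, AAP2 and yfe37 held without any 1 of the 9 arrays and with the covariate.

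Of the 10 genes of the auxin list, 1 passed the test, as lower (10%, beside 10.7% over all named genes). IAA3, which encodes an Aux/IAA repressor, had 10.82, 10.78 and 10.71 in INO-IaaM fruit and 10.82, 11.37 and 10.79 in DefH9-IaaM fruit, against 11.54, 11.46 and 11.40 in control no seeds. The lines lay below the controls by a narrow gap at DefH9-IaaM replicate 2, and the difference was -0.58 ± 0.12 (SE, limma adjusted p = 0.012). The call was lost without control no seeds replicate 1 (adjusted p = 0.0566) and with the 5' minus 3' covariate (adjusted p = 0.0731). A second, dimmer IAA3 probe set did not pass (-0.13, limma adjusted p = 0.73). IAA27 was the only other Aux/IAA gene of the list above the silent range in both groups (-0.61, limma adjusted p = 0.058). IAA2, IAA7 and IAA16 lay in the silent range in every array of both groups, and IAA17 in 5 of 6 IaaM arrays and 2 of 3 controls, so nothing is read from their differences.

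Of 8 gibberellin genes, 1 fell (12.5%, beside 10.7% over all named genes). This was SPY, whose product represses gibberellin signalling, by a small amount (-0.28 ± 0.07 SE, limma adjusted p = 0.020). It did not stay past the threshold when any of the 3 controls was left out (adjusted p up to 0.0744). Of 8 abscisic acid genes, 2 fell (25%, beside 10.7% over all named genes). AO1, an aldehyde oxidase gene, had 7.36, 7.66 and 7.34 in INO-IaaM and 6.70, 7.57 and 7.53 in DefH9-IaaM fruit, against 8.31, 9.29 and 8.40 in control no seeds. It was 2.47-fold lower with no overlap (-1.31 ± 0.24 SE, limma adjusted p = 0.0057), and held without any 1 array. AREB1, a gene for a transcription factor of the abscisic acid response, was lower by 0.55 on the log2 scale (-0.55 ± 0.11 SE, limma adjusted p = 0.011), a call lost without control no seeds replicate 1 (adjusted p = 0.061) and with the covariate (0.051).

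Of 15 cell cycle and histone genes, 5 passed as higher in the IaaM lines and none as lower (33.3%, beside 5.61% higher over all named genes). They were P18, PCNA, krp2, CycA3 and CDKB1, of which CDKB1 lay in the silent range in both groups and is not read as a rise. The median difference of the list was 0.07, with 9 differences above 0 and 6 below.

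P18, which encodes dUTPase, an enzyme that keeps uracil out of DNA, had 8.46, 7.92 and 7.86 in INO-IaaM fruit and 8.02, 8.10 and 8.18 in DefH9-IaaM fruit, against 7.01, 5.37 and 6.53 in control no seeds. All IaaM arrays lay above all controls, which were themselves spread widely. P18 was 3.44-fold higher in the IaaM lines (1.78 ± 0.27 SE, limma adjusted p = 0.0018).

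PCNA, the sliding clamp of DNA replication, had 8.63, 8.07 and 7.98 in INO-IaaM and 8.11, 8.18 and 8.46 in DefH9-IaaM fruit, against 7.43, 6.96 and 7.37 in control no seeds. It was 1.98-fold higher with no overlap (0.98 ± 0.16 SE, limma adjusted p = 0.0034). The calls of P18 and PCNA held without any 1 of the 9 arrays and with the covariate. CycA3, an A-type cyclin gene, was higher by 0.33 ± 0.07 (SE, limma adjusted p = 0.010), a call lost without control no seeds replicate 1 (adjusted p = 0.0534). The cyclin genes CycA1, CycA2, CycB2 and CYCD3, the kinase genes CDKA1 and CDKB2 and the histone gene H1 did not pass.

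**Figure D3:**
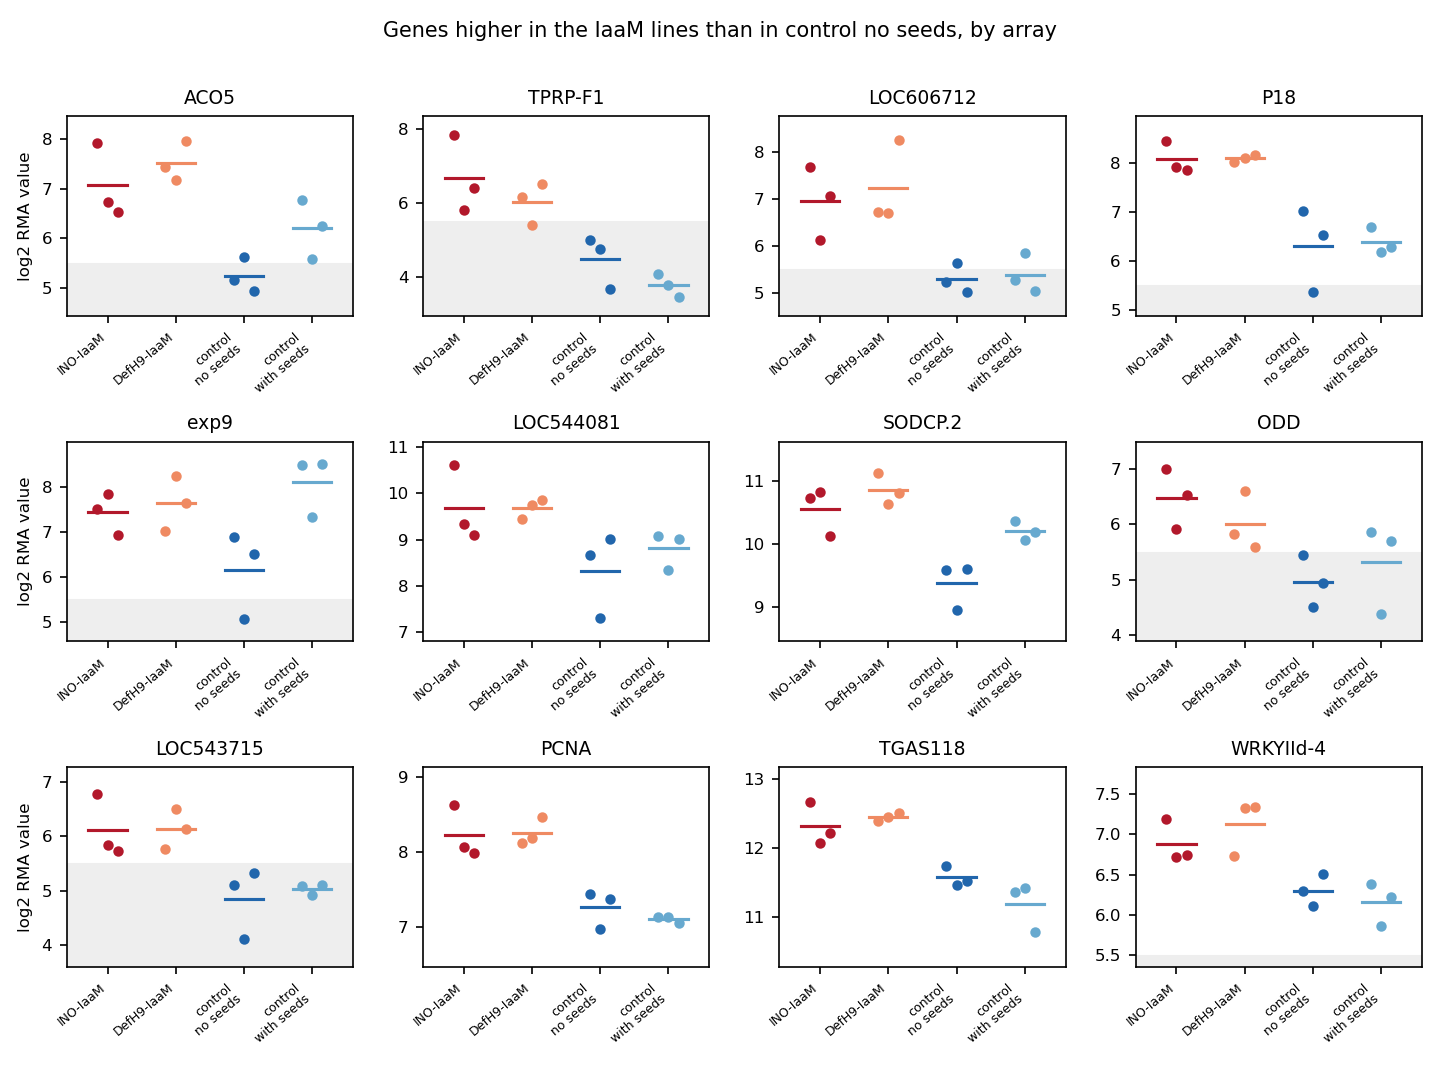
Log2 RMA values by array of the 12 named genes with the largest rises among those that passed without overlap. The groups are INO-IaaM, DefH9-IaaM, control no seeds and control with seeds. Points are arrays, horizontal bars are group means, and grey marks the silent reporter range up to 5.49. All 6 IaaM arrays lie above all 3 of control no seeds in each panel, as the naming rule requires, and for exp9 control with seeds lies as high as the IaaM lines.

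Of 24 redox and ascorbate genes, 3 rose and 1 fell (12.5% and 4.17%, beside 5.61% and 10.7% over all named genes). SODCP.2, a chloroplast copper/zinc superoxide dismutase gene, had 10.73, 10.83 and 10.13 in INO-IaaM and 11.12, 10.64 and 10.80 in DefH9-IaaM fruit, against 9.59, 8.96 and 9.61 in control no seeds. It was 2.496-fold higher with no overlap (1.32 ± 0.18 SE, limma adjusted p = 0.0014), and held without any 1 array. GSH1, for the first enzyme of glutathione synthesis, and MDHAR, which regenerates ascorbate, were higher by 0.34 ± 0.07 and 0.58 ± 0.14 (SE, limma adjusted p = 0.013 and 0.020). Both calls were lost without control no seeds replicate 1 or 3 (adjusted p up to 0.068 for GSH1 and 0.109 for MDHAR).

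Of 52 cell wall genes, 4 passed as higher and 5 as lower (7.69% and 9.62%, beside 5.61% and 10.7% over all named genes). Of these calls 2 lay in the silent range in both groups, and the median difference of the list was 0.07. TBG2, a beta-galactosidase gene, had 8.88, 8.82 and 8.72 in INO-IaaM and 8.43, 8.68 and 8.66 in DefH9-IaaM fruit, against 9.27, 9.28 and 9.29 in control no seeds. The difference was small beside the tight spread of each group (-0.58 ± 0.09 SE, limma adjusted p = 0.0028) and held without any 1 array. Its relatives TBG1 and TBG5 were among the 4 higher, by 0.44 and 0.56 (limma adjusted p = 0.026 and 0.027), and were picked out after their values were seen.

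Both xyloglucan-modifying genes named by the rule fell. tXET-B2 was lower by 1.62 on the log2 scale (-1.62 ± 0.38 SE, limma adjusted p = 0.018) and XTH3 by 1.02 (-1.02 ± 0.22 SE, limma adjusted p = 0.013). The tXET-B2 call was lost without control no seeds replicate 1 or 3 (adjusted p up to 0.0815) and the XTH3 call without control no seeds replicate 1 (adjusted p = 0.0528). The expansin gene exp9 rose (1.38 ± 0.40 SE, limma adjusted p = 0.040). Its call was lost without control no seeds replicates 2 or 3, INO-IaaM replicates 1 or 2 or DefH9-IaaM replicates 2 or 3 (adjusted p up to 0.158), and without control no seeds replicate 2 the difference was 0.84.

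Of 24 sucrose and starch genes, 1 fell (4.17%, beside 10.7% over all named genes). lin5, a cell wall invertase gene of flower and fruit, had 6.15, 7.25 and 6.71 in INO-IaaM and 7.09, 4.98 and 5.21 in DefH9-IaaM fruit, against 8.69, 8.46 and 8.51 in control no seeds. The controls were tight and the lines spread, and the difference was -2.32 ± 0.67 (SE, limma adjusted p = 0.040). That call held only without DefH9-IaaM replicate 1 among the 9 arrays left out in turn (adjusted p up to 0.128). Of 11 organic acid and glyoxylate genes, 2 rose and 1 fell (18.2% and 9.09%, beside 5.61% and 10.7% over all named genes). The fall was that of isocitrate lyase (LOC544276), given with the seed markers below (-2.21, limma adjusted p = 0.022). SCOA and mMDH1 rose by 0.28 and 0.29 (limma adjusted p = 0.025 and 0.026), with calls lost without control no seeds replicates 1 or 3 or DefH9-IaaM replicates 1 or 3, and for SCOA also without control no seeds replicate 2 (adjusted p up to 0.117). These genes encode a succinyl-CoA ligase subunit and mitochondrial malate dehydrogenase.

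Of 18 carotenoid and isoprenoid genes, 2 fell (11.1%, beside 10.7% over all named genes) and none rose. PSY2, a phytoene synthase gene, had 9.24, 9.10 and 8.98 in INO-IaaM and 9.11, 9.36 and 9.23 in DefH9-IaaM fruit, against 9.69, 9.96 and 9.63 in control no seeds. It was lower with no overlap (-0.59 ± 0.11 SE, limma adjusted p = 0.0059) and held without any 1 array. NSY, which RefSeq also lists as Cyc-B, was lower by 0.48 on the log2 scale (-0.48 ± 0.10 SE, limma adjusted p = 0.013), a call lost without control no seeds replicate 1 (adjusted p = 0.066).

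Defence genes numbered 34, of which 2 were higher and 2 lower (5.88% each, beside 5.61% higher and 10.7% lower over all named genes), with a median difference of 0.24. TGAS118, which encodes a defensin-like protein, had 12.67, 12.07 and 12.21 in INO-IaaM and 12.38, 12.45 and 12.51 in DefH9-IaaM fruit, against 11.74, 11.46 and 11.52 in control no seeds. It was 1.76-fold higher with no overlap (0.81 ± 0.15 SE, limma adjusted p = 0.0057). CHI17, a chitinase gene, was higher by 0.61 ± 0.13 (SE, limma adjusted p = 0.0098). Both held without any 1 array.

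The 2 that fell were loxD and AOS, which encode a lipoxygenase and the allene oxide synthase that act in succession in jasmonate synthesis. In both, DefH9-IaaM replicate 2 overlapped the controls. loxD had 9.11, 9.59 and 10.16 in INO-IaaM and 9.92, 11.56 and 10.04 in DefH9-IaaM fruit, against 11.58, 11.94 and 11.31 in control no seeds (-1.55 ± 0.37 SE, limma adjusted p = 0.019). Its call was lost without control no seeds replicate 1 or 2 (adjusted p up to 0.0631). AOS differed by -2.28 (limma adjusted p = 0.033), with 5 of its 6 IaaM arrays in the silent range, and was picked out after its values were seen.

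Of 28 genes for kinases, phosphatases and 14-3-3 proteins, 2 passed as higher and 3 as lower (7.14% and 10.7%, beside 5.61% and 10.7% over all named genes). Of the higher ones, SOS2 lay in the silent range in both groups and is not read as a rise. TFT7, a 14-3-3 gene, had 13.09, 13.12 and 13.12 in INO-IaaM and 13.18, 13.03 and 13.24 in DefH9-IaaM fruit, against 12.55, 12.67 and 12.66 in control no seeds. It was 1.42-fold higher with no overlap (0.50 ± 0.09 SE, limma adjusted p = 0.0057) and held without any 1 array. MPK3, a mitogen-activated protein kinase gene of stress signalling, was lower by 1.52 on the log2 scale (-1.52 ± 0.37 SE, limma adjusted p = 0.020). A second MPK3 probe set differed by -1.55 (limma adjusted p = 0.018), and another, dim one by -0.40 (limma adjusted p = 0.34). CDPK1, a calcium-dependent kinase gene, fell with overlapping arrays (-0.71 ± 0.18 SE, limma adjusted p = 0.026). The MPK3 call was lost without any 1 of the 3 controls (adjusted p up to 0.0708), and the CDPK1 call without control no seeds replicates 2 or 3 or DefH9-IaaM replicates 1 or 3 (adjusted p up to 0.114).

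Of 10 homeobox genes, T6 fell and VAHOX1 rose (10% each, beside 10.7% lower and 5.61% higher over all named genes). T6, a KNOX-class gene of the meristem, had 7.42, 6.57 and 6.84 in INO-IaaM and 6.94, 7.20 and 6.66 in DefH9-IaaM fruit, against 8.62, 7.67 and 8.04 in control no seeds, with no overlap (-1.17 ± 0.24 SE, limma adjusted p = 0.011). Without control no seeds replicate 1 its adjusted p was 0.0615. Control with seeds had 7.45, 6.84 and 6.52 for T6, overlapping the IaaM lines. VAHOX1, a homeodomain-leucine zipper gene, differed by 0.56 ± 0.15 (SE, limma adjusted p = 0.034), and its call was lost without control no seeds replicates 1 or 3, INO-IaaM replicates 2 or 3 or DefH9-IaaM replicates 1 or 3 (adjusted p up to 0.165).

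Outside the lists, PLDb2, TPSI1 and LOC543701 fell, and their calls held without any 1 of the 9 arrays. PLDb2, a phospholipase D gene, had 7.68, 7.66 and 7.37 in INO-IaaM and 7.43, 8.17 and 7.62 in DefH9-IaaM fruit, against 9.73, 9.60 and 9.41 in control no seeds. The arrays did not overlap, and PLDb2 was 3.79-fold lower (-1.92 ± 0.24 SE, limma adjusted p = 0.00081). TPSI1, a gene induced by phosphate starvation in tomato, had 7.27, 8.25 and 8.86 in INO-IaaM and 7.12, 7.88 and 7.74 in DefH9-IaaM fruit, against 9.34, 10.36 and 10.59 in control no seeds. It was 4.74-fold lower with no overlap (-2.24 ± 0.39 SE, limma adjusted p = 0.0048). Control with seeds had 7.93, 8.57 and 7.97 for TPSI1, within the range of the IaaM lines.

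LOC543701, with no role given in the annotation used here, was 4.24-fold lower (-2.08 ± 0.40 SE, limma adjusted p = 0.0075). CBF1, a transcription factor gene of the cold response, was lower by 1.88 on the log2 scale (-1.88 ± 0.48 SE, limma adjusted p = 0.025), and leaving out any of the 3 controls ended its call (adjusted p up to 0.0871). Of the other large rises, TPRP-F1, LOC544081, ODD, LOC543715 and WRKYIId-4 differed by 1.88, 1.35, 1.29, 1.27 and 0.71 (limma adjusted p = 0.027, 0.035, 0.036, 0.015 and 0.021). For TPRP-F1, ODD and LOC543715 all 3 controls lay in the silent range, so these rises were at least 1.83-fold, 1.69-fold and 1.55-fold. Each of these calls was lost on leaving out at least 1 control: replicates 1 or 3 for TPRP-F1, replicates 1 or 2 for LOC544081 and WRKYIId-4, any for ODD and replicate 2 for LOC543715. Without control no seeds replicate 2 the LOC544081 difference was 0.83. The DefH9-IaaM arrays 1 and 3 also decided TPRP-F1 and LOC544081, and INO-IaaM replicates 1 and 3 and DefH9-IaaM replicate 1 decided ODD (adjusted p up to 0.136 over these genes).

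Most probe sets on the array had no gene name here (9129 of those tested), and they include larger rises than any named gene. Among unnamed probe sets that passed without overlap, the one with the largest rise had 7.96, 7.70 and 6.83 in INO-IaaM and 8.31, 7.60 and 7.89 in DefH9-IaaM fruit, against 4.85, 5.64 and 3.85 in control no seeds. It was at least 4.52-fold higher, with 2 controls in the silent range (2.93 ± 0.56 SE before that limit, limma adjusted p = 0.0067). The one with the largest fall had 4.46, 5.78 and 6.36 in INO-IaaM and 7.31, 9.23 and 6.15 in DefH9-IaaM fruit, against 10.05, 10.36 and 9.64 in control no seeds (-3.47 ± 0.64 SE, limma adjusted p = 0.0059). Both calls held without any 1 array.

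**Figure D4:**
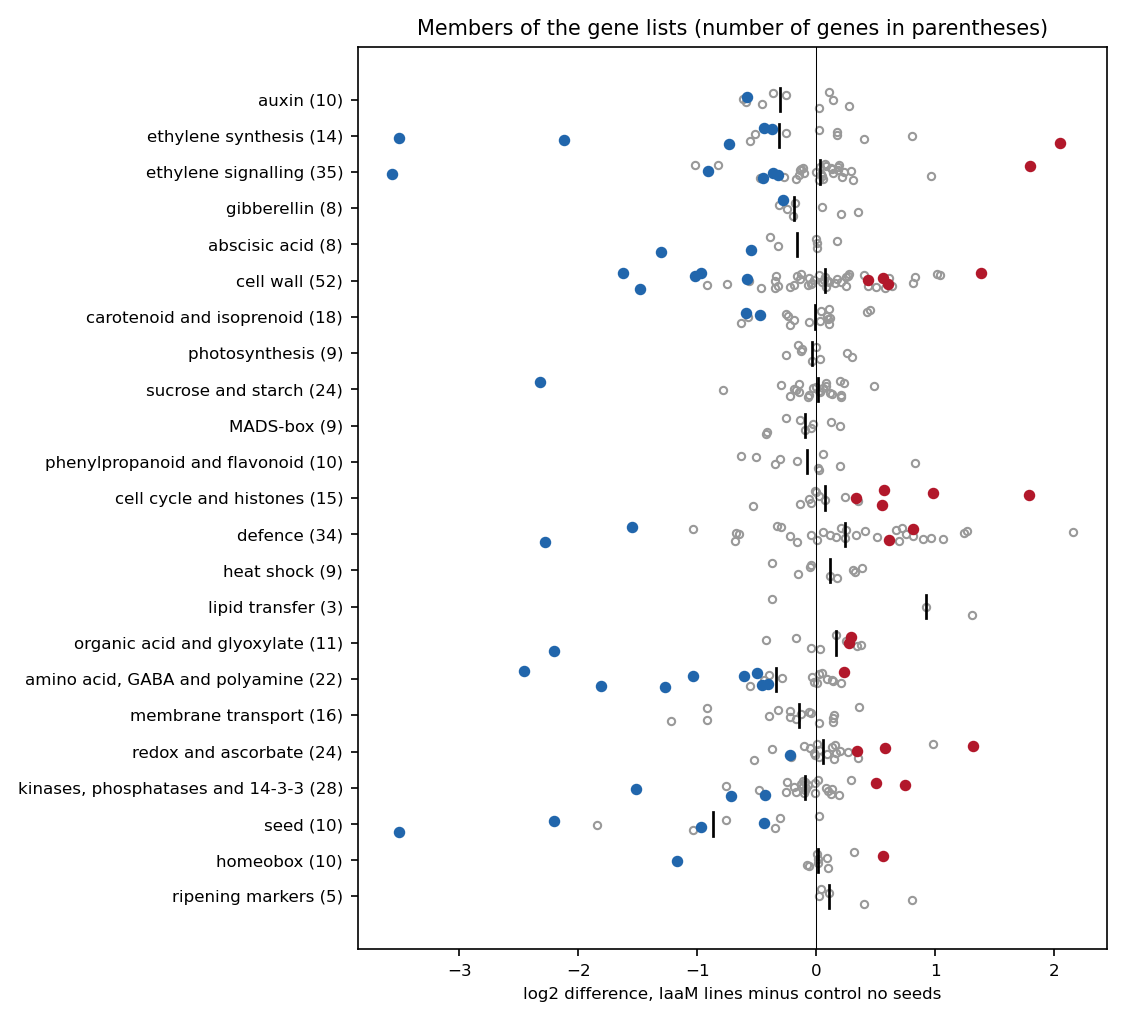
Log2 difference of the IaaM lines from control no seeds for every member of the 23 gene lists, 1 point per gene, with the number of genes in parentheses. Red points rose and blue points fell at an adjusted p under 0.05, open grey points did not pass, and black bars are list medians. Ethylene synthesis and the amino acid list hold most of their filled points left of 0, and the cell cycle list holds its 5 filled points right of 0.

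Other lists showed few or no calls. None of the 9 photosynthesis genes, 9 MADS-box genes, 9 heat shock genes, 10 phenylpropanoid and flavonoid genes, 16 membrane transport genes, 3 lipid transfer genes or 5 ripening markers passed. The ripening markers were bright everywhere, with a mean over the list of 13.05 to 13.3 in the IaaM arrays, against 12.7 to 13.2 in control no seeds. The mean of the 9 photosynthesis genes, which mark green tissue, lay between 11.0 and 11.5 in the IaaM arrays, against 10.8 to 11.8 in control no seeds. The list means of the groups overlapped for both.

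Of the 10 seed markers, 4 fell (40%, beside 10.7% over all named genes), with a median difference of -0.87 from control no seeds. They were isocitrate lyase (LOC544276), GLB2, ACS3 and LEA14. ACS3 and LEA14 were no lower in control no seeds than in control with seeds (means of 7.96 against 7.45, and of 13.2 against 13.1). GLB2 overlapped control no seeds, with all 6 IaaM arrays in the silent range, so no size is given (limma adjusted p = 0.039). The 10 markers were mostly chosen because they were low without seeds on these same arrays, so their direction is not independent evidence. Their mean level was 6.08 to 7.74 in the IaaM arrays, against 6.98 to 8.34 in control no seeds, and 10.4 to 10.9 in control with seeds. The IaaM arrays and control no seeds overlapped through INO-IaaM replicate 2, which stood at 7.74 while the other IaaM arrays reached at most 6.75. That array had 8.35 for AGAL and 7.99 for GolS-1, above every array of control no seeds, while both genes lay in the silent range in the other 5 IaaM arrays. In control no seeds AGAL was in the silent range in 2 of 3 arrays and GolS-1 in 1. By array, 3 to 5 of the 10 markers were in the silent range in the IaaM lines, against 1 to 4 in control no seeds and 0 in control with seeds.

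Isocitrate lyase (LOC544276), an enzyme that seedlings use to convert stored oil, had 6.33, 8.70 and 7.76 in INO-IaaM and 7.47, 8.29 and 7.32 in DefH9-IaaM fruit, against 9.96, 9.11 and 10.50 in control no seeds and 12.48, 12.01 and 12.55 in control with seeds. The hand-cleaned fruit thus lay between the other groups (-2.21 ± 0.55 SE against control no seeds, limma adjusted p = 0.022). Its call was lost without control no seeds replicate 1 or 3 (adjusted p up to 0.108). LEA14, a late embryogenesis gene, also fell (-0.44 ± 0.11 SE, limma adjusted p = 0.022), lost without any 1 of the controls or DefH9-IaaM replicate 1 (adjusted p up to 0.0771). The part of any seed RNA left in control no seeds in the other falls was not tested.

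The 2 IaaM lines were compared with each other without any control. No probe set differed between DefH9-IaaM and INO-IaaM by limma at an adjusted p under 0.05 (0%), while 373 had an unadjusted p under 0.05. Leaving out INO-IaaM replicate 2 gave 1 call. The 95% interval of a difference had a median half-width of 0.30 on the log2 scale, before any adjustment for the number of probe sets.

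Against control no seeds, INO-IaaM alone gave 573 calls (5.71%), 201 higher (2%) and 372 lower (3.71%). That count was 531 without control no seeds replicate 2 and 247 to 332 without any other of its 6 arrays. DefH9-IaaM alone gave 499 (4.97%), 182 higher (1.81%) and 317 lower (3.16%). Among its own 3 arrays, leaving out replicate 1, 2 or 3 gave 87, 1248 or 103 calls. It gave 146 and 185 without control no seeds replicates 1 and 3, and 20 with both groups fitted alone. Both lines were set against the same control arrays. Of the 24 largest named changes, ACS1A alone had an unadjusted p under 0.05 between the lines (limma adjusted p = 0.999), but its 3 INO-IaaM arrays and DefH9-IaaM replicate 1 lay in the silent range, so no size is given. For ER5 the 3 DefH9-IaaM arrays lay above the 3 INO-IaaM arrays, but the interval of the difference was wide (-0.28 to 2.36, limma adjusted p = 0.999).

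The IaaM lines were also tested against the RolB lines, which are seedless through another transgene and need no control array. They differed at 293 probe sets (2.92%) by limma, with 98 higher (0.976%) and 195 lower (1.94%) in the IaaM lines. The count was 79 without DefH9-RolB replicate 1, and 150 to 181 without INO-IaaM replicate 2, DefH9-IaaM replicates 1 or 3 or INO-RolB replicate 2. The bioC minus bioB spike signal, a measure of hybridization, was 0.46 to 0.59 in the IaaM arrays, against 1.06 to 1.12 in the RolB arrays, and its part in these differences was not tested.

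None of the 24 largest changes from control no seeds passed between the IaaM and RolB lines, beside 2.92% of all probe sets. An unadjusted p under 0.05 in limma was found for 3 of the 24, beside 1894 of all 10038 probe sets. The 24 were picked with these same IaaM arrays, so neither count is read as a result. ACS3 lay in the silent range in 5 of 6 IaaM arrays and in all 5 RolB arrays, so no difference between these lines could be read for it. The IaaM minus RolB difference was -0.05 for P18 and -1.50 ± 0.46 for ER5 (SE, limma adjusted p = 0.099).

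Of the 802 named genes, 12 were higher and 19 lower in the IaaM than in the RolB lines, beside 0.976% and 1.94% of all 10038 probe sets. The 4 largest that passed without overlap in each direction were taken. IAA3 had 10.82, 10.78 and 10.71 in INO-IaaM and 10.82, 11.37 and 10.79 in DefH9-IaaM fruit, against 10.08, 9.96 and 10.37 in INO-RolB and 10.13 and 10.35 in DefH9-RolB fruit. All IaaM arrays were above all RolB arrays (0.69 ± 0.11 SE, limma adjusted p = 0.0073). With control no seeds at 11.40 to 11.54, the IaaM lines lay between RolB and control no seeds. Control with seeds, at 11.37, 11.23 and 11.19, overlapped the IaaM lines through DefH9-IaaM replicate 2.

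CHI14, a chitinase gene, was also higher in the IaaM lines (0.86 ± 0.15 SE, limma adjusted p = 0.012), with vsf-1, a bZIP transcription factor gene, and CLB1 higher by 0.40 and 0.30 (limma adjusted p = 0.019 and 0.023). TAS14, a dehydrin gene of the drought and abscisic acid response, had 8.99, 9.03 and 7.41 in INO-IaaM and 8.28, 8.95 and 9.50 in DefH9-IaaM fruit, against 12.04, 10.09 and 11.39 in INO-RolB and 11.66 and 11.21 in DefH9-RolB fruit. It was lower with no overlap (-2.62 ± 0.42 SE, limma adjusted p = 0.0077), and against control no seeds it differed by -0.005 (limma adjusted p = 0.995). Control with seeds had 10.80, 9.99 and 10.58 for TAS14, above all IaaM arrays (-1.76 ± 0.48 SE, limma adjusted p = 0.018). GP1 and LOX1.1 differed between the IaaM and the RolB lines by -1.87 and -0.89 on the log2 scale (limma adjusted p = 0.026 and 0.013). AgpL1 lay in the silent range in all 6 IaaM arrays, so it was at least 2.51-fold lower than in the RolB lines (limma adjusted p = 0.036). The calls of IAA3, CHI14 and TAS14 held without any 1 of the 11 arrays.

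**Figure D5:**
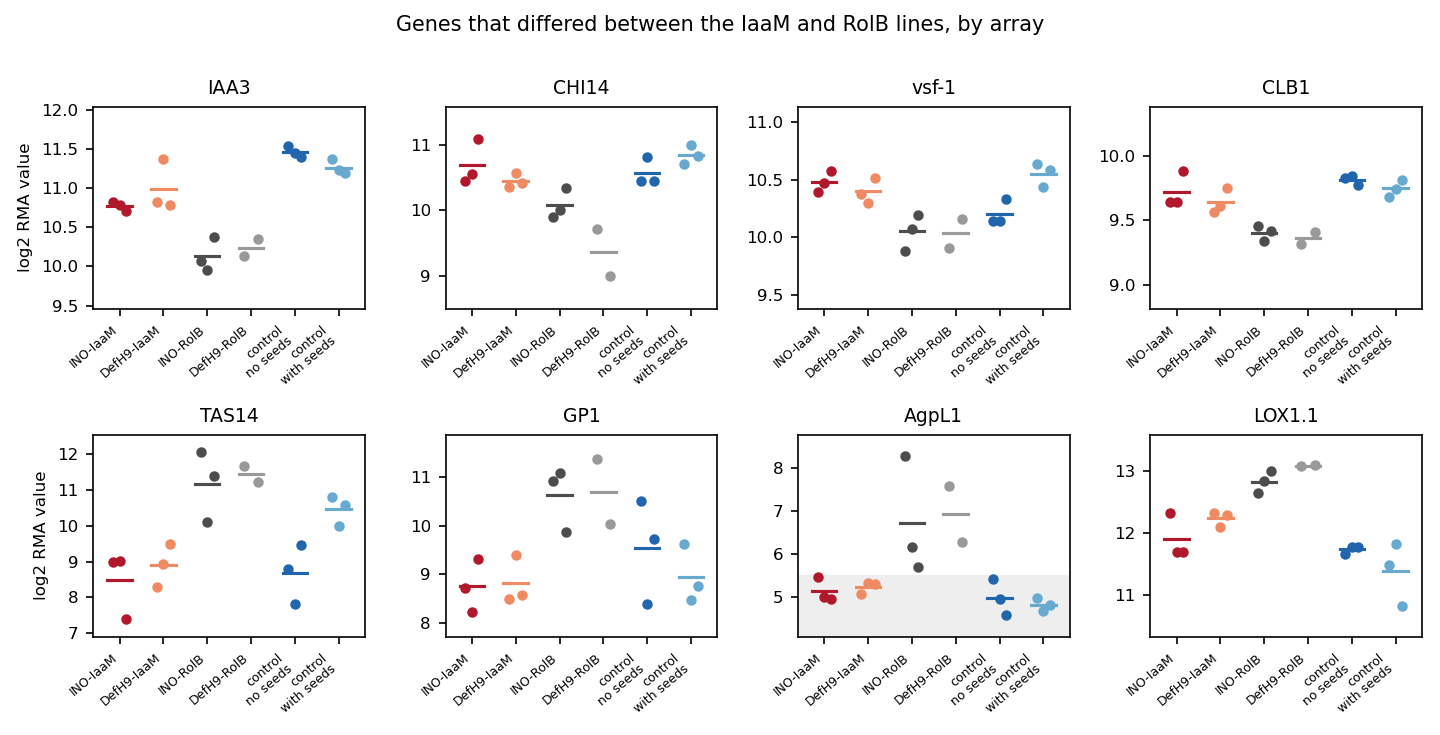
Log2 RMA values by array of the 8 named genes with the largest differences between the IaaM and RolB lines, with both controls at the right. Points are arrays, horizontal bars are group means, and grey marks the silent reporter range up to 5.49. In each panel all 6 IaaM arrays lie on one side of all 5 RolB arrays, as the naming rule requires. For TAS14 the IaaM arrays overlap those of control no seeds and lie below those of control with seeds.

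Against control with seeds, the same 6 IaaM arrays differed at 2439 probe sets (24.3%). Of these, 1363 were higher (13.6%) and 1076 lower (10.7%), and the total was 1368 without control with seeds replicate 3 and 1424 without replicate 1. The IaaM arrays are the ones used against control no seeds, so the 24 largest changes there were picked with these arrays and no count of them is read here. Those of the 24 that did not pass against control with seeds were TPSI1 (-0.31 ± 0.39 SE, limma adjusted p = 0.61) and ACO5, exp9, LOC544081, SODCP.2 and ODD, with differences of 1.09, -0.57, 0.87, 0.50 and 0.93 (limma adjusted p = 0.19, 0.32, 0.11, 0.063 and 0.074). Of the genes named from the lists alone, AO1, AREB1, PSY2 and NSY did not pass either. Their differences were -0.43, -0.19, -0.16 and 0.11 (limma adjusted p = 0.20, 0.26, 0.29 and 0.46). Nor did T6, MPK3, CDPK1 and LEA14, at 0.001, -1.04, -0.48 and -0.30 (limma adjusted p = 0.998, 0.054, 0.071 and 0.062).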

How the data were processed

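The values used are log2 RMA values, 1 per probe set and array, deposited by the authors; the submitters' processing notes name RMA without a version, and the log base was read from the values. Per the labels, each array held biotin-labelled RNA of 8 pooled fruits of 1 plant, and plants are the replicates. Control (108 AFFX) and reporter (63 RPTR) probe sets were left out of the 10209, which left 10038 tested. The platform annotation gave 909 of these 1 gene, and 885 were matched to RefSeq.

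All 17 arrays entered 1 limma model with a mean for each group (lmFit, eBayes, limma 3.58.1, R 4.3.3). Benjamini-Hochberg adjustment covered the 10038 probe sets, with a threshold of 0.05. Array measures were compared by exact permutation. Named genes were the 12 largest rises and falls that passed without overlap, from each list the 3 members of lowest p that passed, and the 4 largest in each direction between IaaM and RolB; a gene's brightest probe set stood for it in list counts. Members and lists were chosen with earlier results of these data known. The homeobox and ripening lists were added after the annotation was read. On simulated data 35 of 67 shifts of 0.5, 63 of 67 shifts of 1 and 65 of 66 shifts of 2 (log2 scale) were called in the main comparison, with 12 unchanged probe sets. The simulated noise was independent between probe sets and arrays, with no deviation of a whole array, so these rates need not hold for the real arrays. Alternatives were other scalings, filters, weights, priors, thresholds, a replicate block, a 5' minus 3' covariate and leaving out each array. Python 3.11.15 with pandas 2.3.3, scipy 1.17.1 and matplotlib 3.10.9 served for annotation, intervals and figures.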

Additional observations from a re-analysis of the deposited data

Results flagged for a closer look

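The 8 genes named from the IaaM minus RolB test differed between the IaaM and RolB lines, and so in their differences from control no seeds, since the control cancels. The difference was 0.69 for IAA3, 0.86 for CHI14, 0.40 for vsf-1, 0.30 for CLB1, -2.62 for TAS14, -1.87 for GP1, -1.64 for AgpL1 and -0.89 for LOX1.1 on the log2 scale, each past the threshold in limma. Calls were lost without DefH9-RolB replicate 1 for vsf-1 and LOX1.1, without that array, DefH9-IaaM replicate 3 or INO-RolB replicate 2 for CLB1, and without any 1 of 6 arrays each for GP1 and AgpL1 (adjusted p up to 0.201). AgpL1 lay in the silent range in the IaaM lines and in control no seeds, so its value is no measured size, and with silent values set to the top of that range it was at least 2.51-fold lower in the IaaM than in the RolB lines.

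Reporter probe sets, which were left out of the tests, carried signal in every IaaM array. RPTR-Les-U57609-2_s_at was at least 9.74 in the IaaM arrays and 7.14 to 9.62 in the RolB arrays, and no control exceeded 4.09. RPTR-Les-A00196-1_s_at was at least 9.80 in the IaaM arrays, 3.93 to 10.8 in the RolB arrays, and no control exceeded 4.36. What these probe sets detect is not given in the sources used here.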

How the results depend on the processing

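With 3 arrays a line, precision is limited by their number. Called probe sets in IaaM minus control no seeds (1135, with 490 higher and 645 lower) numbered 526 (158 and 368) with the groups of the comparison alone, 2016 (1052 and 964) with array weights, 273 (76 and 197) at an adjusted p under 0.01 and 415 (143 and 272) with the 5' minus 3' covariate. Leaving out 1 array gave 434 to 1837 (145 to 956 higher, 289 to 881 lower). INO-IaaM alone (573) gave 1260, 123 and 240 with array weights, the stricter threshold and the covariate, and 247 to 531 without 1 array. DefH9-IaaM alone (499) gave 20 with its groups alone, 1340, 63 and 176 under those same 3 settings, and 87 to 1248 without 1 array. IaaM minus RolB (293) gave 116 with its groups alone, 496 with array weights, 45 at the stricter threshold and 79 to 330 without 1 array. IaaM minus control with seeds (2439) gave 3683, 1076 and 1112 with array weights, the stricter threshold and the covariate, and 1368 to 2819 without 1 array. DefH9-IaaM minus INO-IaaM gave 0 to 1 without 1 array. The causes of these shifts were not tested, other than fewer arrays or a stricter threshold where the setting itself is that.

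Of the 52 genes and probe sets named from the main comparison, 22 held their call without any 1 array, and 23 lost it with the covariate. Under every other setting run on them, the stricter threshold left aside, 24 held their call. No named gene reversed. The 25S rRNA signal, 0.38 higher in the IaaM arrays, gave a difference of -0.00621 without control no seeds replicate 1 and of up to 1.08 over the arrays left out in turn. Residual correlations of arrays with the same replicate number ran from -0.264 to 0.167, so the numbers were not taken as pairs, and the replicate block gave 994 calls (411 higher, 583 lower) and ended the calls of exp9, ODD, lin5 and the unnamed probe set with the second largest rise.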
